A study of Rattus norvegicus with 13 samples.

Results

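The immediate early genes Fos, Jun, Junb, Egr1, Myc and Atf3, with Dusp1 and Btg2, were followed in the liver of pregnant rats fed with or without ethanol at an adequate or a reduced energy supply. They were taken as every probe set of the array, other than controls, whose annotation names 1 gene only and that gene is one of the 8. This gave 19 of 8740 probe sets, for 7 of the 8 genes (and of 4736 genes named on the array): 3 for Fos, 4 for Jun, 2 for Junb, 4 for Egr1, 2 for Myc, 1 for Atf3 and 3 for Dusp1. Btg2 was not analysed here. Of the 19 probe sets, 15 were bright enough to be tested, and each of the 7 genes had at least 1 of them. Of the 4 that were not, 3 were for Jun and 1 for Myc. A probe set is a group of short oligonucleotides against 1 transcript, and it is named here by the sequence record it was designed on.

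Hepatic RNA from time-mated female Sprague Dawley rats, an outbred strain, was hybridised as 13 samples to 1 one-colour array each. The daily energy supply of TEN-220 (n = 3), which had no ethanol, was 220 kcal per kg of body weight raised to the power 0.75. EtOH-220 (n = 3) had the same energy supply with 12 g of ethanol per kg daily. TEN-160 (n = 3) was kept undernourished at 160 kcal with no ethanol, and EtOH-160 (n = 4) was kept at 160 kcal with 12 g of ethanol per kg daily. All 4 groups were pregnant. The labels leave unstated whether animals were pooled, the day of gestation and the animals' age. The p-values given here thus reflect only how far these samples differ from each other, which may be technical. In whole liver, fewer cells of a type and less RNA per cell cannot be told apart.

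Immediate early genes are transcribed within minutes of a signal, from factors that already lie in the cell, and their mRNAs are short-lived. Fos, Jun, Junb and Atf3 encode leucine zipper proteins of the AP-1 and ATF families, Egr1 a zinc finger transcription factor, and Myc a helix-loop-helix leucine zipper factor of cell growth. Dusp1 encodes a nuclear phosphatase that removes phosphate from the p38, JNK and ERK kinases, so that it ends the signal that induces it. In liver, these genes are known for their surge after partial hepatectomy, injury and the handling of tissue.

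The promoters of Dusp1 and Junb are shown because Dusp1 is the one gene here that passed the test, and Junb is a gene of the same early class with other sequence matches. Both are the 250 bases before the transcription start in RefSeq's rat assembly GRCr8, on the plus strand, at chr10:17184603-17184852 for Dusp1 and chr19:40080876-40081125 for Junb. Capitals mark, on either strand, matches to 3 short motifs. The first, TGACGT, is the core of the cyclic AMP response element to which CREB and ATF proteins bind. The second is the E-box CACGTG, and the third is a TATA box spelled TATAAA.
Dusp1: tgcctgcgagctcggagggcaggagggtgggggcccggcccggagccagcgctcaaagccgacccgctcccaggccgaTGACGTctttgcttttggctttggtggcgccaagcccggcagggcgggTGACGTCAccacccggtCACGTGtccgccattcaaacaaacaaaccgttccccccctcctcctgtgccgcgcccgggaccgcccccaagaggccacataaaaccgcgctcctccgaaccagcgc
Junb: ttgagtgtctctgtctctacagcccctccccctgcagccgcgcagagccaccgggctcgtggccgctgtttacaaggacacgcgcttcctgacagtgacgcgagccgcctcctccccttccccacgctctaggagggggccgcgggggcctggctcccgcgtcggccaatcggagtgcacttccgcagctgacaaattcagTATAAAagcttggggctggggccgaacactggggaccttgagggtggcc

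The Dusp1 promoter held 1 match to the palindrome TGACGTCA, the consensus cyclic AMP response element, which begins 124 bases before the start. It held 3 matches to the core TGACGT, of which 2 overlap as both strands of that palindrome and 1 lies at 172 bases before the start. It also held 1 match to CACGTG, the E-box that MYC and related factors bind, at 107 bases before the start. The Junb promoter held none of these and 1 match to TATAAA, at 49 bases before the start. The Egr1 promoter held 2 matches to the CArG box, the site of serum response factor, and 2 to TGACGT. Both strands were searched. Of 33469 RefSeq promoters of the same length, 1.59% held TGACGTCA, 6.95% TGACGT, which counts those of the palindrome too, 5.59% CACGTG, 12.9% TATAAA and 1.5% a CArG box. None of the promoters of Dusp1, Egr1 and Junb held TGANTCA, the AP-1 site, against 6.34% of all. A match describes the letters and is not a bound site.

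Signals are given on a linear scale after every array was brought to 1 trimmed mean, and a level is a geometric mean. The background, from probe sets for bacterial and yeast sequences, was 46.6. A change is a difference of mean log2 signals from limma, with its standard error (SE), and it was called at an adjusted p under 0.05 over 5244 probe sets (Benjamini-Hochberg). Spreads ± are SD on the log2 scale. The arrays of TEN-160 differed from the rest in more than the diet. Their scores on the first principal component, which held 30.05% of the variance, were 30.5 to 41.6 against -13.8 to -2.63 in the others. The ratio of 2 probe sets for the ends of a spiked bacterial transcript, BioDn, ran from 0.132 to 0.210 elsewhere but from 0.422 to 0.497 in TEN-160. In every comparison with TEN-160, the diet and this difference between arrays cannot be told apart.

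Dusp1 was the 1 member that passed the test. Its brightest probe set, U02553, had its lowest level in undernourished rats without ethanol, and it passed the test in both pairwise comparisons made with that group. The signals of this probe set were 506.3, 568.7 and 858.6 in TEN-220, 367, 1370.4 and 732.9 in EtOH-220, 119.3, 229.2 and 67.3 in TEN-160, and 448.1, 456.4, 413.2 and 398 in EtOH-160. All 3 TEN-160 arrays lay below all other 10. TEN-160 lay wholly below or wholly above the other 10 for 15.4% of the 5244 probe sets tested, but for no other probe set of these genes. The levels were 628 ± 0.40 in TEN-220 (n = 3), 717 ± 0.95 in EtOH-220 (n = 3), 122.5 ± 0.88 in TEN-160 (n = 3) and 428 ± 0.09 in EtOH-160 (n = 4). Among TEN-220, EtOH-220 and EtOH-160 no difference passed the test. EtOH-160 lay below TEN-220 without overlap, by -0.55 (SE 0.41, 95% interval -1.44 to 0.33, adjusted p = 0.613).

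**Figure D1:**
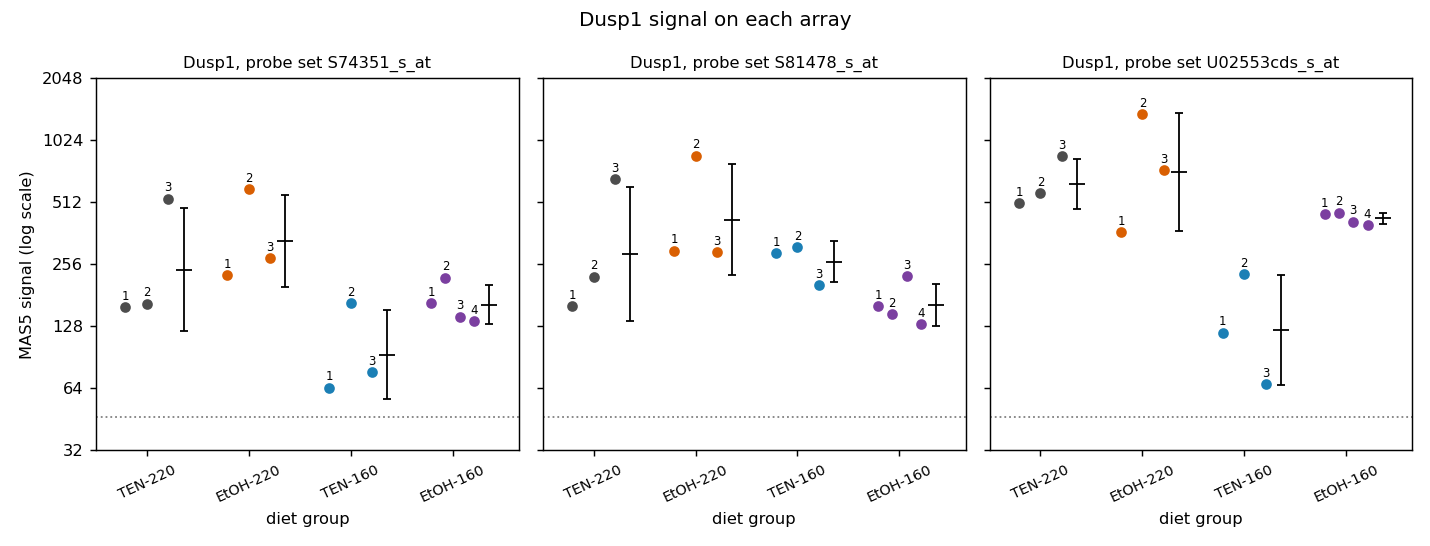
Signals of the 3 Dusp1 probe sets on a log axis by diet group, with a point for each array labelled by its replicate number, a black bar for the geometric mean with 1 SD on the log2 scale, and a dotted line for the background of 46.6. In U02553 the TEN-160 points, at 67.3 to 229.2, lie below all others, whereas in S81478 they lie among them.

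U02553 fell by 2.36 on the log2 scale (SE 0.44, 95% interval -3.30 to -1.41, adjusted p = 0.00273), which is 5.12-fold, between TEN-220 and TEN-160 (called energy without ethanol below). It was the 1 call among the 15 tested probe sets of these genes, in a comparison where 18.3% of all probe sets were called in either direction and 9.15% were called lower. From TEN-160 to EtOH-160 (ethanol at 160 kcal), it rose by 1.81 (SE 0.41, 95% interval 0.92 to 2.69, adjusted p = 0.00728), 3.50-fold. This too was 1 call among 15, where 22.2% of all probe sets were called and 10.1% were called higher. The 2 comparisons share the TEN-160 arrays. A share of 1 in 15 is below the share of all probe sets in both.

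The other Dusp1 probe sets did not repeat the size of the change. S74351 had signals of 159, 164.9 and 533.6 in TEN-220, 226.2, 596.5 and 274.3 in EtOH-220, 64.5, 165.5 and 76.4 in TEN-160, and 166.5, 220.7, 142.6 and 136.1 in EtOH-160. Of its TEN-160 arrays, 2 were the lowest of all 13, and replicate 2 lay among the control arrays. Its change in energy without ethanol was -1.37 (SE 0.48, 95% interval -2.40 to -0.33, adjusted p = 0.0652), and in ethanol at 160 kcal 0.81 (SE 0.45, adjusted p = 0.221). The former passed in 4 alternatives, among them quantile normalization (-1.57, adjusted p = 0.0364) and leaving out TEN-160 replicate 2 (-1.78, adjusted p = 0.0314).

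S81478 had signals of 160.5, 223 and 665.6 in TEN-220, 298.8, 864 and 292.5 in EtOH-220, 289.7, 310.5 and 203 in TEN-160, and 160.1, 147.2, 224.8 and 131.5 in EtOH-160. Here TEN-160 overlapped TEN-220, and its lowest group was EtOH-160. The changes were -0.13 in energy without ethanol (SE 0.48, adjusted p = 0.876) and -0.70 in ethanol at 160 kcal (SE 0.45, adjusted p = 0.293), the latter opposite in sign to U02553. With the 3 probe sets averaged, an alternative chosen after seeing the data, Dusp1 changed by -1.28 (SE 0.42, adjusted p = 0.0512) and by 0.64 (SE 0.40, adjusted p = 0.275), so that both calls ended. Under each of 22 other alternatives, which include leaving out each array in turn, U02553 passed in both comparisons. Over the 13 arrays the Pearson correlation was 0.88 between S74351 and U02553, 0.67 between S74351 and S81478, and 0.40 between S81478 and U02553, as a description of probe sets measured on the same arrays.

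Among rats given ethanol, Dusp1 was lower by value at 160 than at 220 kcal on all 3 probe sets, but none passed the test of EtOH-160 against EtOH-220 (energy with ethanol). The changes were -1.38 in S81478 (SE 0.45, 95% interval -2.34 to -0.41, adjusted p = 0.239), -1.03 in S74351 (SE 0.45, adjusted p = 0.421) and -0.74 in U02553 (SE 0.41, adjusted p = 0.539). The groups did not overlap in S81478 and S74351. Of all probe sets, 0.21% were called and 10.4% did not overlap in this comparison. Between TEN-220 and EtOH-220 (ethanol at 220 kcal), the Dusp1 changes were 0.19 to 0.55 (adjusted p 0.739 to 0.929), and 0.0191% of all probe sets were called. Replicate 2 of EtOH-220 was the highest of all 13 arrays on all 3 Dusp1 probe sets.

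Whether ethanol acted differently at the 2 energy supplies was tested by the interaction, the change from ethanol at the lower supply less that at the higher. For U02553 it was 1.61 (SE 0.60, 95% interval 0.32 to 2.91, adjusted p = 0.112) and did not pass, and 7.7% of all probe sets were called. It passed without EtOH-220 replicate 2, at 2.08 (adjusted p = 0.0404), and without TEN-160 replicate 2, at 2.06 (adjusted p = 0.0460). For S81478 the interaction was -1.25 (adjusted p = 0.255) and for S74351 it was 0.34 (adjusted p = 0.786).

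Marker lists and RNA quality were read in the groups of the Dusp1 comparisons. The 3'/5' ratio of GAPDH, used as a check of RNA integrity, lay at 1.026 to 1.242 in TEN-160. It was higher without overlap in EtOH-160, at 1.505 to 1.726, and in TEN-220, at 1.525 to 2.323. The actin 3'/5' ratio did not set TEN-160 apart, at 1.91 to 2.961. EtOH-160 arrays had actin ratios of 1.775 to 2.31, and TEN-220 arrays 1.972 to 3.002, so each group overlapped TEN-160. The summed signal of endothelial markers, of which 7 of 12 were on the array, was 1230 to 1312 in TEN-220, below TEN-160 (1457 to 2607) and EtOH-160 (1375 to 1962). The levels of Icam2 (41.1) and Vwf (46.4) were below the background of 46.6 in TEN-220. That of stellate cell and fibroblast markers, 10 of 12 on the array, was 2755 to 3087, 3098 to 5589 and 2095 to 3422 in TEN-220, TEN-160 and EtOH-160. Des was below background in each of these groups, Dcn in TEN-220 (20.7) and Acta2 in TEN-160 (20.4). Kupffer cell and macrophage markers, 11 of 17 on the array, summed to 12030 to 13600, 12160 to 14150 and 9183 to 11240, with Csf1r below background in TEN-220 (45.6) and EtOH-160 (44.0). Neutrophil markers, 4 of 9 on the array, summed to 158.5 to 410.6, 115.1 to 1069 and 79.1 to 264.9. By their mean over all arrays 2 of the 4 were below background. The 1 neutrophil marker tested, S100a9, had levels of 104, 205 and 29.0, the last below background. It fell by 2.82 in ethanol at 160 kcal (adjusted p = 0.0353), a size that rests on that dim level. Erythroid markers, 5 of 11 on the array with 1 below background by that mean, were at 14200 to 19620, 14280 to 29550 and 9110 to 16490. Lymphocyte markers, 9 of 15 on the array with 4 below background by their mean over all arrays, were at 671.7 to 871.1, 805.6 to 1164 and 748.2 to 794.7. Bile duct markers, 7 of 9 on the array with 1 below background by that mean, were at 5184 to 6133, 5162 to 8333 and 4474 to 7633. Hepatocyte markers, 13 of 14 on the array and all above background, were at 252000 to 267300, 264500 to 319700 and 229200 to 279100. The part of these in the result was not tested.

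Egr1 was higher by value with ethanol on all 4 of its probe sets, at either energy supply, but no probe set passed the test. At 220 kcal the change on AI176662 turned negative when EtOH-220 replicate 3 was left out, at -0.39. The signals of the brightest, AF023087, were 452.1, 502.3 and 565.9 in TEN-220, 1278.2, 475.3 and 1971.5 in EtOH-220, 693.1, 548.1 and 950.7 in TEN-160, and 905.2, 1329.4, 1231.6 and 1137.1 in EtOH-160. Those of M18416 were 84.6, 101.9 and 138.5 in TEN-220, 171.5, 105.2 and 627.4 in EtOH-220, 123.8, 134.5 and 160.5 in TEN-160, and 230.4, 414.5, 355.9 and 391.9 in EtOH-160. On both probe sets the 4 EtOH-160 arrays lay above all TEN-220 arrays, EtOH-220 spread from the control range to the highest signal of all, and its replicate 2 stayed in the control range.

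**Figure D2:**
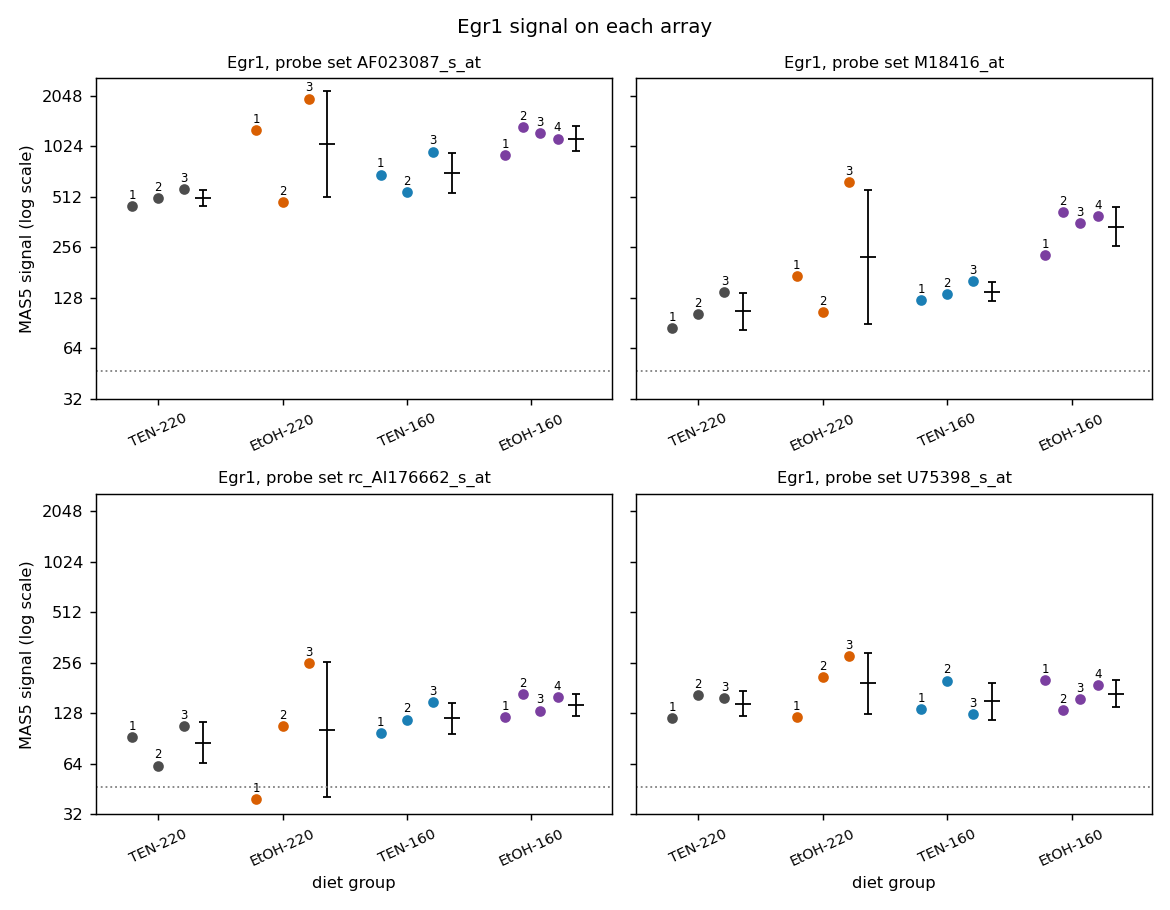
Signals of the 4 Egr1 probe sets on a log axis by diet group, with a point for each array labelled by its replicate number, a black bar for the geometric mean with 1 SD on the log2 scale, and a dotted line for the background of 46.6. Replicate 3 of EtOH-220 is the highest point on each probe set, and in M18416 the EtOH-160 points, at 230.4 to 414.5, lie above all TEN-160 points.

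With ethanol and the lower energy supply together (EtOH-160 against TEN-220), M18416 changed by 1.68 (SE 0.45, 95% interval 0.72 to 2.64, adjusted p = 0.0664), between levels of 106 and 340, and AF023087 by 1.17 (SE 0.36, 95% interval 0.41 to 1.94, adjusted p = 0.115), between 505 and 1139. AI176662 changed by 0.75 (SE 0.46, adjusted p = 0.507) and U75398 by 0.20 (SE 0.28, adjusted p = 0.837). The groups did not overlap on the first 3 of these, and they did not overlap for 16.6% of all probe sets in this comparison, of which 2.19% were called. With the 4 probe sets averaged, Egr1 changed by 0.95 (SE 0.31, adjusted p = 0.121). M18416 passed in 4 of 23 alternatives: without EtOH-220 replicate 2 (adjusted p = 0.0343), without EtOH-220 replicate 3 (adjusted p = 0.0063), with array weights (adjusted p = 0.0341) and in a fit to the 2 groups alone (adjusted p = 0.0102). AF023087 passed in 2 of 24, without EtOH-220 replicate 2 (adjusted p = 0.0157) and with the 2 groups alone (adjusted p = 0.00852).

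In ethanol at 160 kcal, M18416 changed by 1.29 (SE 0.45, 95% interval 0.33 to 2.25, adjusted p = 0.0525), with no overlap of the groups, as for 31.5% of all probe sets. AF023087 changed by 0.68 (SE 0.36, adjusted p = 0.192), AI176662 by 0.27 and U75398 by 0.15. M18416 passed in 7 of 22 alternatives. Among them were quantile normalization (1.42, adjusted p = 0.0289) and a fit to the 2 groups alone (adjusted p = 0.00648). Others left out EtOH-220 replicate 2 (adjusted p = 0.0253), EtOH-220 replicate 3 (adjusted p = 0.00492) or EtOH-160 replicate 1 (adjusted p = 0.0481). EtOH-220 is not compared here but enters the shared estimate of spread. Its log2 SD on M18416 was 1.33, against 0.19 in TEN-160 and 0.38 in EtOH-160. AF023087 passed without EtOH-220 replicate 2 (adjusted p = 0.0425). In ethanol at 220 kcal, AF023087 changed by 1.07 (SE 0.38, 95% interval 0.25 to 1.89, adjusted p = 0.385) and M18416 by 1.08 (SE 0.48, adjusted p = 0.459). Without EtOH-220 replicate 2, AF023087 changed by 1.65 (adjusted p = 0.0311). Leaving out EtOH-220 replicate 3 instead gave 0.63 in AF023087, 0.34 in M18416, 0.14 in U75398 and -0.39 in AI176662. The interaction of ethanol with energy supply was -0.40 to 0.21 over the 4 probe sets (adjusted p 0.672 to 0.997), with 95% intervals that reached from -1.52 (AF023087) to 1.61 (M18416).

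Energy without ethanol changed the 4 Egr1 probe sets by 0.05 to 0.50 (adjusted p 0.393 to 0.924), and energy with ethanol by -0.20 to 0.60 (adjusted p 0.680 to 0.947). The Egr1 probe sets differed in how alike they were: AF023087 and M18416 correlated at 0.91 over the 13 arrays, and the other pairs at 0.18 to 0.66. Of the marker lists, Kupffer cell and macrophage markers summed to 9324 to 14960 in EtOH-220, which spans the range of the controls, and to less in EtOH-160 than in either control group. Endothelial markers summed to 1508 to 1787 in EtOH-220, and the GAPDH 3'/5' ratio was 1.038 to 1.47 there, so that on both EtOH-220 did not overlap TEN-220. The actin 3'/5' ratio, at 1.931 to 2.179 in EtOH-220, did overlap that of TEN-220. The part of these in the Egr1 values was not tested.

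The AP-1 genes, whose proteins pair with each other to bind DNA, gave no call by limma in any of the 6 comparisons, and 2 of their 36 tests had an unadjusted p under 0.05. Fos, which encodes the inducible partner of the JUN proteins, was brightest on X06769 (the probe set ending in g), with signals of 351.4, 353.8 and 525.1 in TEN-220, 613.2, 314 and 353.6 in EtOH-220, 329.7, 355.7 and 270 in TEN-160, and 432, 505.7, 425.9 and 427.9 in EtOH-160. EtOH-160 lay above all TEN-160 arrays and within the range of TEN-220. The change in ethanol at 160 kcal was 0.50 (SE 0.23, 95% interval 0.01 to 0.99, adjusted p = 0.136), and with median-centred arrays it was 0.70 (adjusted p = 0.0441). The other Fos probe sets changed by 0.54 (X03347) and -0.78 (X06769 without g) in that comparison, and the 3 correlated at only -0.21 to 0.23 over the arrays. They therefore gave no common direction for Fos.

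Junb, an AP-1 subunit that can oppose JUN, was lowest in EtOH-220 by level on both probe sets. AA891041 had signals of 134.2, 83.9 and 277.9 in TEN-220, 111.9, 109.6 and 78.1 in EtOH-220, 276.4, 66.4 and 334.4 in TEN-160, and 169.7, 184.2, 291.9 and 230.7 in EtOH-160. All EtOH-160 arrays lay above all EtOH-220 arrays, whereas TEN-220 and TEN-160 spanned both. Its change in energy with ethanol was 1.12 (SE 0.49, 95% interval 0.06 to 2.18, adjusted p = 0.422), and that of X54686, whose groups overlapped, 0.72 (SE 0.35, adjusted p = 0.470). In ethanol at 220 kcal the changes were -0.57 and -0.61 (adjusted p 0.767 and 0.617), and in the other pairwise comparisons they were -0.17 to 0.55.

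Jun, the core AP-1 subunit, was above background on every array on 1 of its 4 probe sets, AI175959, with levels of 184 in TEN-220, 118 in EtOH-220, 183 in TEN-160 and 159 in EtOH-160. Its signals were 127.4, 225.2 and 216.8 in TEN-220, 140.8, 214.3 and 54.3 in EtOH-220, 151, 188 and 215.4 in TEN-160, and 139.5, 537.6, 106.5 and 80.7 in EtOH-160, so that all groups overlapped. The changes were -0.64 to 0.43 over the 5 pairwise comparisons, with SE of 0.56 to 0.60. The 3 untested Jun probe sets had signals of 20.5 to 117.1 (AA944014), 4.7 to 80 (AA945867) and 12.1 to 61.8 (X17163), with background at 46.6.

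Atf3, a stress-induced member of the ATF family, had 1 probe set, M63282, with levels of 95.8 in TEN-220, 96.3 in EtOH-220, 115 in TEN-160 and 126 in EtOH-160. Its signals were 79.6 to 113.8 in TEN-220, 61.2 to 126.3 in EtOH-220 and 106.9 to 127.8 in TEN-160, and 74.2, 387.7, 79.2 and 109.3 in EtOH-160. The groups overlapped, and the pairwise changes of 0.01 to 0.39 were all smaller than their SE of 0.47 to 0.50.

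**Figure D3:**
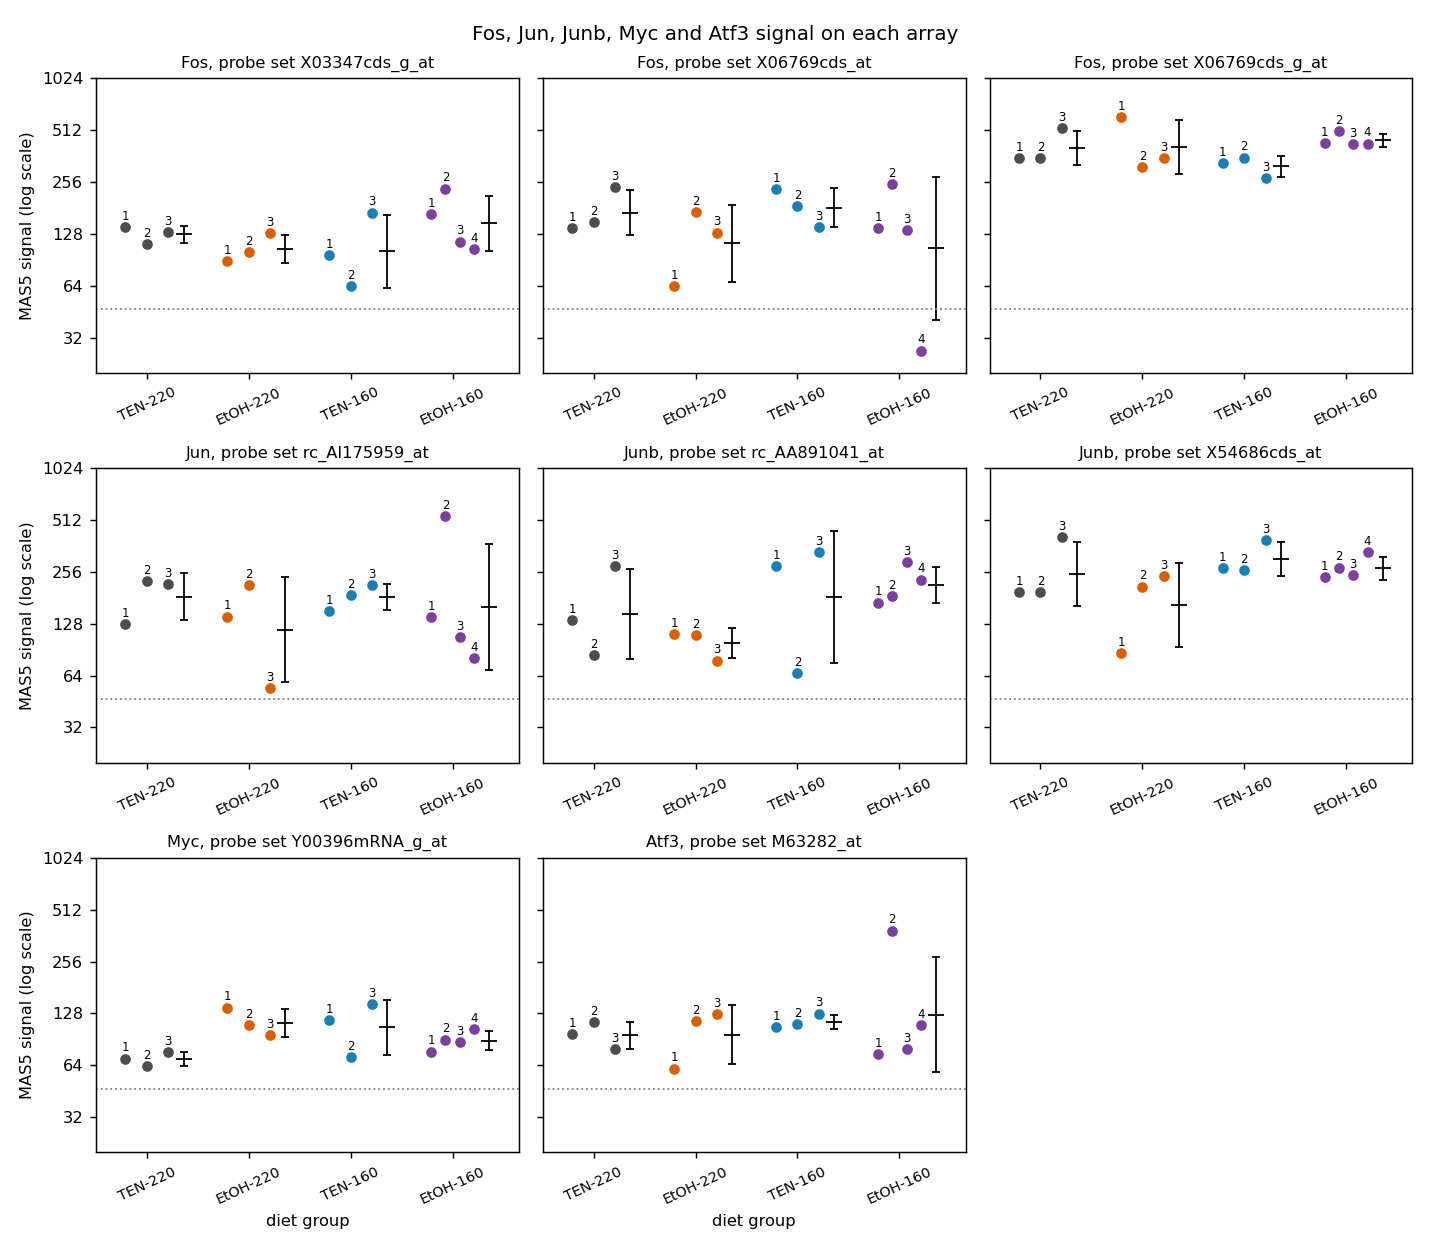
Signals of probe sets of Fos, Jun, Junb, Myc and Atf3 on a log axis by diet group, with a point for each array labelled by its replicate number, a black bar for the geometric mean with 1 SD on the log2 scale, and a dotted line for the background of 46.6. The groups overlap in most panels, and replicate 2 of EtOH-160 is the highest point for Atf3, at 387.7, and for Jun, at 537.6.

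Myc had 1 tested probe set, Y00396 (the one ending in g), at 69.9, 63.6 and 76.4 in TEN-220, 138.6, 109.4 and 95.6 in EtOH-220, 117.6, 71.1 and 144.6 in TEN-160, and 76.8, 90.3, 87.2 and 103.8 in EtOH-160. All EtOH-220 and all EtOH-160 arrays lay above all TEN-220 arrays, by a small margin in EtOH-160. The change in ethanol at 220 kcal was 0.70 (SE 0.29, 95% interval 0.07 to 1.32, adjusted p = 0.450), the 1 member probe set of 15 without overlap in this comparison, against 16.9% of all probe sets. In energy without ethanol it was 0.61 (SE 0.29, adjusted p = 0.166), and 0.90 (adjusted p = 0.0462) without TEN-160 replicate 2. The interaction was -0.96 (SE 0.40, 95% interval -1.81 to -0.10, adjusted p = 0.151). The untested Myc probe set had signals of 9.3 to 87.2.

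Over the whole group, 1 of 15 probe sets was called in each of ethanol at 160 kcal and energy without ethanol. None of 15 was called by limma in ethanol at 220 kcal, energy with ethanol, both factors together or the interaction, where 3, 3, 2 and 2 had an unadjusted p under 0.05. The shares of all probe sets at that unadjusted p were 10.3%, 10.9%, 14.3% and 25.2%. In ethanol at 160 kcal 3 of 15 had an unadjusted p under 0.05 (all probe sets 35.4%), and in energy without ethanol 2 of 15 (32.2%). Groups did not overlap for 1 of 15 in ethanol at 220 kcal (all probe sets 16.9%), 3 in ethanol at 160 kcal (31.5%), 1 in energy without ethanol (37%), 3 in energy with ethanol (10.4%) and 5 in both together (16.6%). The median change of the 15 was 0.10 to 0.23 over the pairwise comparisons, beside -0.07 to 0.07 over all probe sets.

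**Figure D4:**
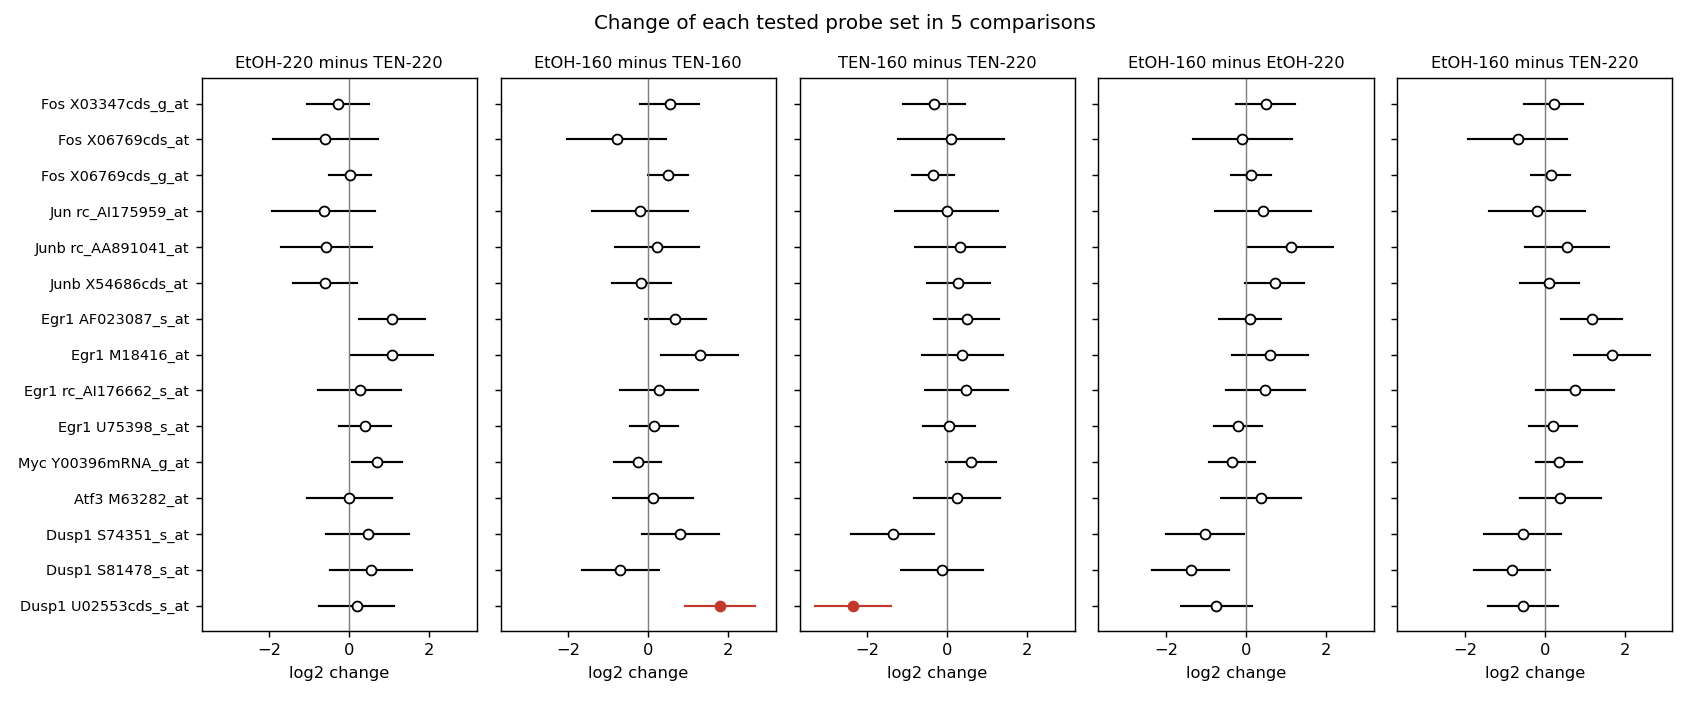
Log2 change with its 95% interval for each tested probe set of the 7 genes in 5 pairwise comparisons, with red filled points for an adjusted p under 0.05. The only red points are Dusp1 U02553 at -2.36 in energy without ethanol and at 1.81 in ethanol at 160 kcal, and most other intervals span 0.

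The arrays within a group differed widely in these genes. The pooled within-group SD on the log2 scale was above the median of all tested probe sets, 0.32, for 13 of the 15, and above their 90th percentile for 9. It was 0.91 for Fos X06769 without g, 0.88 for Jun AI175959, 0.77 for Junb AA891041, 0.71 for Atf3 and 0.64 to 0.70 for the 3 Dusp1 probe sets. The exceptions were the brightest Fos probe set at 0.31 and Myc at 0.30. The median SE of a change was accordingly 0.45 to 0.48 over the members in the pairwise comparisons, beside 0.24 to 0.26 over all probe sets. Of the 19 probe sets, EtOH-160 replicate 2 was the highest of all arrays on 6, namely 2 each of Fos and Jun and 1 each of Myc and Atf3. EtOH-220 replicate 3 was highest on the 4 of a single gene, Egr1. Among the 5244 tested probe sets, these arrays were highest on 5.7% and 7.09%.

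The wider gene classes are read against the share of all probe sets called, which was 22.2% in ethanol at 160 kcal, 18.3% in energy without ethanol, 0.21% in energy with ethanol and 2.19% in both factors together. Of 20 other genes of the AP-1, ATF and CREB families, with the C/EBP genes Cebpb, Cebpd and Ddit3 counted among them, 11 were on the array and 8 were tested. In energy without ethanol 2 of 8 fell and none rose (all probe sets 18.3% called): Cebpb, a hepatocyte factor of the acute phase and gluconeogenesis, fell by 1.25 (adjusted p = 0.000238), and Cebpd, its acute phase relative, fell by 0.72 (adjusted p = 0.0479). In ethanol at 160 kcal 3 of 8 rose and none fell (all probe sets 22.2% called): Cebpd by 0.94, Cebpb by 0.68 and Mafk, a small MAF protein, by 0.59. Mafk in ethanol at 160 kcal was thus the only call outside the C/EBP genes in these comparisons. The calls of Cebpb in both comparisons, and of Cebpd with ethanol, passed in all 22 alternatives, whereas Cebpd without ethanol failed in 13 and Mafk in 6. The list's median changes were -0.19 and 0.11, beside 0.07 and -0.07 over all probe sets. The level of Cebpb was 1976 in TEN-220, 1161 in EtOH-220, 832 in TEN-160 and 1333 in EtOH-160.

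Of 51 other immediate early genes, 31 were on the array and 26 tested. In ethanol at 160 kcal and in energy without ethanol 5 of 26 were called (all probe sets 22.2% and 18.3%), and in energy with ethanol and both together 1 of 26 (0.21% and 2.19%). Klf9, a Krüppel-like factor induced by glucocorticoid and thyroid hormone, rose in both factors together by 2.09 (SE 0.21, adjusted p = 0.000199), its level being 381 in TEN-220 and 1620 in EtOH-160, the 1 call of the list there. It rose in ethanol at 160 kcal by 1.38 (adjusted p = 0.000747), with Zfp36, which encodes an mRNA decay factor, at 0.52, while Nr4a3, an orphan nuclear receptor, fell by 1.64, Id2, an inhibitor of helix-loop-helix factors, fell by 1.25 and Irf1, an interferon response factor, fell by 1.12. With energy reduced and no ethanol, Klf9 and Id3 rose by 0.71 and 0.76, and Rhob, a small GTPase, Ier5 and Errfi1, an inhibitor of EGF receptors, fell by 1.28, 1.14 and 0.40. Each of these 5 failed in 7 to 16 of 22 alternatives, Nr4a3 in 6 and Zfp36 in 11. The level of Nr4a3 in EtOH-160 was 48.55, near the background of 46.6. Klf9 also rose by 1.30 in energy with ethanol (adjusted p = 0.0222), and this call failed in 9 of 23 alternatives. The list's medians were -0.03, 0.20, 0.10 and 0.09 in ethanol at 160 kcal, energy without ethanol, energy with ethanol and both together, beside -0.07, 0.07, -0.03 and -0.02 over all probe sets.

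Dusp1 acts on the MAP kinases, and 20 of 43 genes of the cascade and its growth factor inputs were tested, of 25 on the array. The calls were 5 of 20 in ethanol at 160 kcal, 3 of 20 in energy without ethanol and 1 of 20 in both together, where 22.2%, 18.3% and 2.19% of all probe sets were called. Between TEN-160 and EtOH-160 3 rose, Map2k2 (an ERK kinase) by 0.99, Egfr by 0.98 and Mapk14 (p38α) by 0.82, and 2 fell, Met (the receptor of hepatocyte growth factor) by 1.31 and Mapk9 (JNK2) by 0.97. Between TEN-220 and TEN-160 Map3k12, a kinase upstream of JNK, rose by 1.51 and Met rose by 1.39, and Map2k2 fell by 0.98. The level of Map3k12 in TEN-220 was 47.5, near the background of 46.6. Met, Map2k2 and Mapk9 passed under all 22 alternatives in these comparisons, as did Map3k12, whereas Egfr failed in 9 and Mapk14 in 2. In both factors together Map3k12 rose by 1.54 and failed in 4 of 23 alternatives. The medians were 0.03, 0.20 and 0.18 in these 3 comparisons, beside -0.07, 0.07 and -0.02 over all probe sets. Of the other DUSP phosphatases 2 of 13 were tested, Dusp5 and Dusp6, and neither was called by limma in any comparison, with 2 of 12 tests at an unadjusted p under 0.05.

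Of 28 partners and targets of MYC, 15 were tested, and 4 of 15 were called in each of ethanol at 160 kcal and energy without ethanol (all probe sets 22.2% and 18.3%). In ethanol at 160 kcal Ncl (nucleolin) rose by 0.99, Prdx3 by 0.74 and Hspd1 by 0.50, and Eif4e, the cap-binding translation factor, fell by 1.30. Between TEN-220 and TEN-160 Mxi1, a partner of MAX that opposes MYC, rose by 0.80, and Cdk4, Ncl and Hspd1 fell by 0.85, 0.77 and 0.65. Ncl and Eif4e in ethanol at 160 kcal passed in all 22 alternatives, and the others failed in 2 to 12. The medians were -0.11 and -0.30, beside -0.07 and 0.07 over all probe sets. Of 17 genes listed as BTG and TOB genes, the family of Btg2, or as p53 targets, 6 were tested. Btg1 was the only gene of the Btg2 family among the 6. In each of these comparisons 1 of 6 was called (all probe sets 22.2% and 18.3%). Ccng1 (cyclin G1), one of the p53 targets, rose by 0.86 and fell by 0.93, and these calls failed in 7 and 6 alternatives. The medians were -0.31 and -0.01.

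Dusp1 is a textbook target of the glucocorticoid receptor, and 10 of 16 glucocorticoid-induced genes were tested. The calls were 4 of 10 in energy without ethanol, 2 in ethanol at 160 kcal, 1 in energy with ethanol and 2 in both together, where 18.3%, 22.2%, 0.21% and 2.19% of all probe sets were called. When energy was reduced without ethanol 3 rose, Igfbp1 by 3.17 (adjusted p = 0.00257), Pck1, the gluconeogenic enzyme, by 2.48 (adjusted p = 0.0150) and Klf9 by 0.71, and Cebpd fell by 0.72, in the comparison in which Dusp1 U02553 fell. With ethanol at 160 kcal Klf9 and Cebpd rose by 1.38 and 0.94, in energy with ethanol Klf9 rose by 1.30, and in both factors together Klf9 and Pck1 rose by 2.09 and 2.58. Pck1 failed in 3 of 22 alternatives and in 11 of 23. The list's medians were 0.42, 0.26, 0.22 and 0.47 in these 4 comparisons, beside 0.07, -0.07, -0.03 and -0.02 over all probe sets. In ethanol at 220 kcal none of the 83 tested genes of these lists was called by limma, and 13 had an unadjusted p under 0.05.

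The probe sets most like each gene's brightest were found by Pearson correlation of log2 signal over the 13 arrays, and they are descriptions that share libraries and diets. For Dusp1 U02553 the highest were both probe sets of Map2k2, at 0.93 and 0.92, and Dgka, a diacylglycerol kinase, at 0.91. Without the 3 TEN-160 arrays these were 0.61, 0.51 and 0.68 over 10 arrays, so that much of the likeness lay between TEN-160 and the rest. For Egr1 AF023087 they were Cd14, the endotoxin co-receptor of macrophages, at 0.79, with Bex3 and Eif5 at 0.79 too. Cd14 had levels of 552 in TEN-220, 969 in EtOH-220, 574 in TEN-160 and 1022 in EtOH-160, and the correlation was 0.74 without EtOH-220 replicate 3 and 0.82 without TEN-160. The Kupffer cell and macrophage list, which holds Cd14, went the other way by its median, at -0.10 in ethanol at 220 kcal and -0.43 in ethanol at 160 kcal. In the latter 3 of its 10 tested genes were called lower and 1 higher, where 22.2% of all probe sets were called.

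For Atf3 they were Hspb1, a small heat shock protein, at 0.92, and both probe sets of Csad at 0.92 and 0.81. These were 0.85, 0.70 and 0.57 without EtOH-160 replicate 2, the array on which Atf3 was highest. For Junb X54686 Acvr2b, an activin receptor, was highest at 0.95, and at 0.85 without EtOH-220 replicate 1. For Fos it was Hsd17b8 at 0.87, for Jun Dync1h1 at 0.79 and for Myc Atp2a3 at 0.84.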

How the data were processed

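The deposited values were intensity signals on a linear scale that the authors made with MAS5, per the submitters' processing notes, of a version not given in the sources used here. All 13 columns were used. The 2%-trimmed mean was 500.9 to 501 on 12 arrays and 133.3 on TEN-220 replicate 1, so each array was scaled to 500.9, signals under the 10th percentile (9.4) were set to it, and log2 was taken. Leaving out 59 controls and the 40% of 8740 probe sets with the lowest mean left 5244, of which 4308 named 1 gene, 245 several and 691 none. In limma 3.58.1 (R 4.3.3), 4 group means were fitted by lmFit and eBayes with a variance trend, two-sided, in 6 comparisons. Background was the 95th percentile of 19 bacterial and yeast control probe sets. The number of arrays limits the precision.

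Members and lists were chosen with earlier results of these data known. All members are named, called or not, and from each list at most 4 called genes by smallest p, in the brightest probe set; Zfp36, Egfr and Id3, next in order in their lists, were named after their values were seen. The procedure was tested on simulated data with 5244 probe sets, with independent noise and no difference of a whole group such as that of TEN-160. Energy without ethanol gave back 52% of 2-fold and 78% of 4-fold changes, with 8 of 129 calls false, and ethanol at 160 kcal 56% and 94%, with 4 of 143 false. These shares hold for randomly drawn probe sets, whereas 9 of the 15 member probe sets had a within-group SD above the 90th percentile. Same-numbered arrays of different groups correlated only weakly in their deviations, at -0.11 to 0.09, and the numbers were not used as a block. Alternatives were other normalizations, floors and filters, variance models, a replicate block, fits to the groups compared alone, and the removal of single arrays. Figures used matplotlib 3.10.9 under Python 3.11.15.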

Additional observations from a re-analysis of the deposited data

Results flagged for a closer look

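Within the 4 EtOH-160 arrays, replicate 2 stood far from the others on 2 of the 19 probe sets. On Fos X06769 (ending in g) its signal was 505.7 and the others were 425.9 to 432, a gap of 0.918 of the group's range on the log2 scale. On Jun X17163, which was too dim to be tested, it was 61.8 and the others were 14.4 to 16.1, a gap of 0.923 on the log2 scale. Both gaps exceed Dixon's 95% critical value for 4 arrays, which chance passes in about 1 group in 20.

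In 6 of 83 tested genes of the wider lists, a share near the 7.7% of all 5244 probe sets called, the effect of ethanol differed between the 2 energy supplies by the interaction of limma's fit, which holds the TEN-160 arrays. The difference, ethanol at 160 kcal minus ethanol at 220 kcal, was 1.45 for Cebpb (adjusted p = 0.00219), 1.17 for Ncl (adjusted p = 0.0257), -1.99 for Met (adjusted p = 0.00879), -1.89 for Map3k12 (adjusted p = 0.0245), -1.08 for Mapk9 (adjusted p = 0.0409) and -2.94 for Igfbp1 (adjusted p = 0.0397). Cebpb and Met passed in all 21 alternatives, and the others failed in 3, 6, 15 and 12, in the order Ncl, Map3k12, Mapk9 and Igfbp1. The level of Map3k12 in TEN-220 was 47.5, near the background of 46.6. None of the 15 member probe sets passed by this test, and 2 had an unadjusted p under 0.05.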

How the results depend on the processing

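Over all alternatives, no called member changed direction. Of 2034 member values, 2009 kept their side of the threshold, 23 gained a call and 2 lost one, both for Dusp1 U02553 with the gene's probe sets averaged. Of values never called, 89 changed sign. Dusp1 U02553 ranged from -2.81 to -1.92 in energy without ethanol and from 1.37 to 2.26 in ethanol at 160 kcal when each array was left out in turn. Median-centring shifted the median of all probe sets to 0.13 in ethanol at 160 kcal and -0.16 in energy without ethanol, and the calls to 849 higher and 350 lower and to 263 higher and 833 lower, from 530 and 634 and from 478 and 480. In the interaction the median was 0.22, with 449 higher and 109 lower calls in place of 194 and 210. The count of probe sets called by limma in ethanol at 220 kcal was 1 (542 at an unadjusted p under 0.05). It was 5 with quantile normalization, 2 median-centred, 0 with no filter, with no variance trend or with only the 2 groups, 19 with array weights and 5 without the TEN-160 group, an alternative chosen after seeing the data. In energy with ethanol it was 11 (569 unadjusted), and 20 with the floor at the background, 0 with no filter, 7 with no trend, 6 with only the 2 groups and 5 without the TEN-160 group. In both together it was 115, and 51 with no filter and 311 with array weights. With the replicate block these 3 counts were 5, 2 and 68. Whether the replicate numbers pair the arrays was not settled. Same-numbered arrays of different groups correlated in their deviations at -0.11 to 0.09, and the other pairs at -0.15 to 0.19. Yet among arrays numbered 1 to 3, the best match of 8 of 12 had the same number, where most would carry another number if the numbers meant nothing. EtOH-160 replicate 4 was left out of that count. It correlated with TEN-220 replicate 3 at 0.18 and with EtOH-220 replicate 3 at 0.14, above all same-numbered pairs. The 12 matches also share pairs of arrays and are not independent. Leaving out 1 array gave counts of 0 to 11 in ethanol at 220 kcal, 807 to 1283 in ethanol at 160 kcal, 517 to 1067 in energy without ethanol, 0 to 53 in energy with ethanol, 50 to 160 in both and 146 to 368 in the interaction (404 with all arrays). In energy without ethanol the low counts were those without TEN-220 replicate 1 (517) and replicate 2 (547). The cause was not tested. Of 45 list calls, 18 passed in all alternatives.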
